A study of Homo sapiens with 6 samples.

Results

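The BCL2 family decides whether a cell under stress keeps or loses the integrity of its mitochondrial outer membrane. Here 10 of its genes were followed through newly labelled RNA of A375 cells, an established human melanoma line. The genes were taken by symbol, 5 pro-survival (BCL2, BCL2L1, BCL2L2, MCL1 and BCL2A1) and 5 pro-death (BAX, BAK1, BCL2L11, PMAIP1 and BID), and each matched 1 of the 58243 Ensembl identifiers in the count data. A375 cells stably transfected with an empty vector (EV) were compared with A375 cells stably transfected with human PRL3 (PTP4A3), a phosphatase linked to metastasis, with 3 libraries in each group (EV B1, B2 and B3, and PRL3 B9, B10 and B11, in which order values are given). All cells were kept in hygromycin B and pulsed with 500 µM 4-thiouridine (4sU), a uridine analogue, for 20 min, and the labelled RNA was biotinylated and pulled down. The counts are of reads over annotated exons, so they can hold spliced RNA. For elongation the study turned to intronic reads, to remove possible effects of splicing or mRNA carry-over. The part of such reads in the counts used here was not tested. The study asked how PRL3 alters transcription in these cells. The labels do not say whether each line was a clone or a pool, or whether the 3 libraries came from separate cultures, so p-values measure only the spread between these libraries.

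In this family, the pro-survival proteins hold their pro-death relatives in check by binding them. BAX and BAK1, the effectors, form the pores that release cytochrome c from mitochondria, and the BH3-only proteins, here BCL2L11 (BIM), PMAIP1 (NOXA) and BID, carry the stress signal by occupying the pro-survival proteins or engaging the effectors. Melanoma cells are known for their reliance on MCL1, and BCL2 and BCL2A1 are known targets of the melanocyte regulator MITF.

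The libraries held 36532207 to 57952035 reads assigned to genes. PTP4A3 checked the labels, with 161 to 279 normalized counts in EV libraries and 22065 to 28767 in PRL3 libraries. Normalized counts are counts scaled to a common library size by TMM, a factor that balances the composition of the libraries. The share of uniquely aligned reads outside annotated exons of the counted strand moved with the groups, at 28.7% to 41.1% in EV and 62.8% to 69.1% in PRL3 libraries, and its part in the results below was not tested. Of 8 melanocytic markers 4 passed the filter on low counts. SOX10 (22796 ± 4960 normalized counts in EV and 12613 ± 1788 in PRL3, SD, n = 3) and S100B (2859 ± 450 and 1096 ± 38.0) were lower, while MITF (1378 ± 150 and 1773 ± 51.3, log2 fold change 0.36, edgeR adjusted p = 0.0738, libraries not overlapping) and PMEL (46.4 ± 13.2 and 37.2 ± 19.9) were not called. TYR and MLANA had at most 2 reads in any library. These are bulk libraries, in which fewer cells that express a gene and less RNA per cell cannot be told apart.

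Among the 10 members, 4 were lower (BAX, BAK1, BID and BCL2L1) and 3 were higher (BCL2L11, MCL1 and PMAIP1) in PRL3 than in EV at a Benjamini-Hochberg adjusted p of 0.05 over 23884 genes (quasi-likelihood F test of edgeR). BCL2 and BCL2L2 did not pass. Of all genes tested, 22.7% were lower and 20.0% higher, and among the 14443 tested genes that code for proteins the shares were 31.6% lower and 15.2% higher. BCL2A1 passed the filter on low counts only through its PRL3 libraries, so it had to differ once tested, and its higher level is given as a description and left out of the 3. With BCL2A1 left out, the median log2 fold change of the members was that of BCL2L2, -0.29. The medians of all genes (0.11) and of protein-coding genes (-0.15) were higher. Both effectors and BID were lower, whereas the other two BH3-only genes were higher. The groups did not overlap in these 7 members and BCL2A1, while over all genes 26.6% lay apart with PRL3 lower and 29.7% with PRL3 higher.

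**Figure D1:**
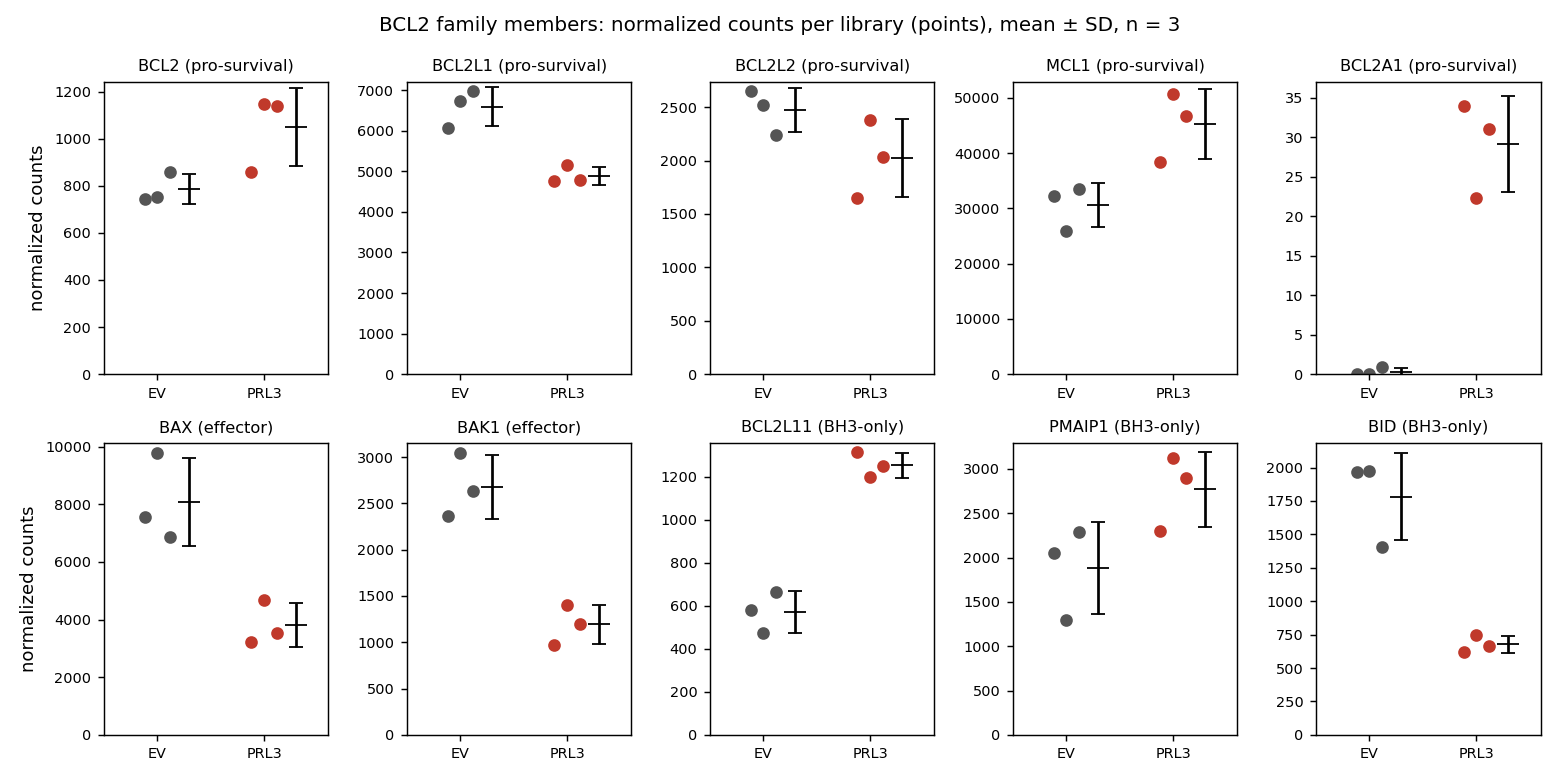
Normalized counts (y axis, from 0, a scale of its own in each panel) of the 10 members in the 3 EV (grey) and 3 PRL3 (red) libraries, with the mean and SD beside the points. EV and PRL3 points do not overlap in any panel but those of BCL2 and BCL2L2. In PMAIP1 they are separated only narrowly, with EV B3 at 2286 and PRL3 B9 at 2298.

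The calls of BAX, BAK1, BID and BCL2L11 held under all 16 alternative processings, and BCL2A1 was nearly without reads in EV. The 100 bases before the RefSeq start sites of these 5 genes (GRCh38.p14, 5′ to 3′ on the gene's strand) are printed as a description. Capitals mark the TATA box letters TATAAA, the CCAAT box, the GC box letters GGGCGG and the E-box letters CACGTG on either strand, and no 2 marked motifs overlap in these windows.
BAX (chr19:48954775-48954874, plus strand): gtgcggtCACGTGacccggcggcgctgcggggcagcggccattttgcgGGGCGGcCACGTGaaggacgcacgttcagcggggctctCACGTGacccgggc
BAK1 (chr6:33580277-33580376, minus strand): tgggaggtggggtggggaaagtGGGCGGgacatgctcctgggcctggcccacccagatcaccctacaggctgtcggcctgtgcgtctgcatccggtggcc
BID (chr22:17774470-17774569, minus strand): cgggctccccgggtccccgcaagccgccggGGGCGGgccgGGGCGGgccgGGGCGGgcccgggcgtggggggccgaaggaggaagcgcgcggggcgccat
BCL2L11 (chr2:111120814-111120913, plus strand): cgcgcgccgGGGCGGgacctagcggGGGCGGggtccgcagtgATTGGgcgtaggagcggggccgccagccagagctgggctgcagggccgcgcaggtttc
BCL2A1 (chr15:79971197-79971296, minus strand): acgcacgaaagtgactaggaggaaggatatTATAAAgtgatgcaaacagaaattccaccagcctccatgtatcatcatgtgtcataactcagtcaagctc

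The printed stretch was 74% G and C in BAX, 69% in BAK1, 88% in BID and 78% in BCL2L11, and GGGCGG is marked in each. In BCL2A1 it was 42%, without GGGCGG. Over the 250 bases before the start, RefSeq promoters of 8 members were searched on both strands, without BCL2L2 and MCL1. GGGCGG was found in 5 of the 8, 3 of them lower (BAX, BAK1 and BID) and the other two higher (BCL2L11 and PMAIP1), and in 42.6% of all 35116 promoters. TATAAA was found in BCL2A1 and BCL2L1, against 10.7% of all promoters, and CCAAT in BAX, BAK1 and BCL2L11, against 32.0%. CACGTG was found in BAX alone, against 6.34% of all promoters, and TGACGTCA in none, against 1.65%. A match describes these letters and is not evidence of a bound factor.

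The effectors were lower in PRL3-expressing cells. BAX (ENSG00000087088, chromosome 19 from 48954815 to 48961798, GRCh38) had 7556, 9785 and 6863 normalized counts in the 3 EV libraries and 3207, 4680 and 3538 in the 3 PRL3 libraries. The highest PRL3 library lay below the lowest EV library. Its log2 fold change was -1.08 (SE, the standard error, 0.18, edgeR adjusted p = 0.000446), a level 2.12-fold higher in EV. BAK1 (ENSG00000030110, chromosome 6 from 33572547 to 33580293) had 2365, 3048 and 2629 normalized counts in EV and 975, 1403 and 1203 in PRL3. Its groups did not overlap either, and its log2 fold change was -1.17 (SE 0.18, edgeR adjusted p = 0.000183). Reads that BAK1 shares with its pseudogenes BAK1P1 and BAK1P2 could have been lost in counting. In both effectors EV B2 was the highest EV library and PRL3 B10 the highest PRL3 library.

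BID, the BH3-only protein that caspase-8 cleaves to link death receptors to mitochondria, fell furthest of the 10. It lies on chromosome 22 from 17734138 to 17774770 (ENSG00000015475) and had 1964, 1977 and 1408 normalized counts in EV and 618, 747 and 668 in PRL3. The lowest EV library stood well above the highest PRL3 library. The log2 fold change was -1.39 (SE 0.18, edgeR adjusted p = 6.1e-05), and only 8.95% of the tested protein-coding genes had a lower one.

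BCL2L11, which encodes BIM, a BH3-only protein that binds all pro-survival members, went the other way. This gene (ENSG00000153094, chromosome 2 from 111119378 to 111168444) had 580, 472 and 663 normalized counts in EV and 1315, 1199 and 1251 in PRL3. Every PRL3 library was above every EV library, and the PRL3 libraries were closer to each other than the EV libraries were. The log2 fold change was 1.13 (SE 0.18, edgeR adjusted p = 0.000256). The long noncoding gene MIR4435-2HG covers 10.8% of its exon length on the opposite strand, and its normalized counts were 6337 ± 129 in EV and 6681 ± 206 in PRL3 (SD, n = 3 each, edgeR adjusted p = 0.68).

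PMAIP1, whose product NOXA chiefly occupies MCL1, was also higher, by less. It lies on chromosome 18 from 59899996 to 59904305 (ENSG00000141682) and had 2052, 1293 and 2286 normalized counts in EV and 2298, 3118 and 2899 in PRL3. The groups did not overlap, but only narrowly, since EV B3 and PRL3 B9 were nearly level. The log2 fold change was 0.56 (SE 0.21, edgeR adjusted p = 0.0422). The call was lost without EV B2, PRL3 B10 or PRL3 B11, with log2 fold changes of 0.37, 0.47 and 0.54 and edgeR adjusted p of 0.111, 0.148 and 0.118.

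MCL1, the pro-survival protein with the fastest turnover in the family, was the member with the most reads. It lies on chromosome 1 from 150560895 to 150579738 (ENSG00000143384) and had 32277, 25975 and 33501 normalized counts in EV and 38333, 50631 and 46714 in PRL3. All PRL3 libraries were above all EV libraries. The log2 fold change was 0.56 (SE 0.17, edgeR adjusted p = 0.0151), or 1.48-fold. The call was lost without PRL3 B10 or PRL3 B11 (edgeR adjusted p = 0.0605 and 0.0610, log2 fold changes 0.48 and 0.55).

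3 genes on the strand of MCL1 overlap its annotated span, which reaches beyond the 3′ end of its main transcript. ADAMTSL4-AS1, which overlaps the far end of that span, had 454, 508 and 927 normalized counts in EV and 2700, 2493 and 2615 in PRL3, a log2 fold change of 2.04 (edgeR adjusted p = 2.9e-05). RN7SL600P and RN7SL473P, pseudogenes of the signal recognition particle RNA that lie inside the span, had log2 fold changes of 2.06 (46.4 ± 17.1 against 195 ± 16.8 normalized counts) and 4.42 (4.13 ± 2.68 against 89.3 ± 33.9, SD, n = 3 in each group). Copies of this RNA are near-identical across the genome, so these counts are uncertain. The 3 genes rose more than MCL1 itself, and the difference was not tested.

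BCL2A1 (BFL-1), a pro-survival gene best known from leukocytes, was nearly silent in EV cells. It lies on chromosome 15 from 79960892 to 79971196 (ENSG00000140379) and had 0, 0 and 1 reads in the EV libraries and 33, 30 and 29 in the PRL3 libraries. The summed counts, set against the library sizes, gave a ratio of 78.0 (95% exact binomial interval 13.6 to 3112, counting error only). Gains from near 0 were not particular to this gene. Over all genes, 27205 to 27930 had at least 1 read in EV libraries and 31657 to 32082 in PRL3 libraries. No p is given, since the gene was tested only because of its PRL3 counts, and no fitted fold change, since that depends on the prior count. Even in PRL3 cells the level was low, at 29.1 ± 6.07 normalized counts (SD, n = 3), with 3 counts corresponding to between 2.23 and 3.65 normalized counts in a library. The summed level of leukocyte markers was higher in PRL3. The 5 markers summed to 59.0 to 86.5 normalized counts in EV and 133 to 151 in PRL3 libraries, nearly all from LCP1 (41.6 ± 11.9 against 90.3 ± 4.86, SD, n = 3) and CD14 (24.7 ± 12.9 against 47.0 ± 12.1, SD, n = 3). LCP1 passed the threshold (edgeR adjusted p = 0.0412), whereas CD14 did not (edgeR adjusted p = 0.228) and its libraries overlapped. Defining leukocyte genes were near 0, with at most 12 reads of PTPRC and 2 of CD3E in any library. Their part in the change of BCL2A1 was not tested.

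The remaining pro-survival genes differed less between the groups. BCL2L1, which encodes BCL-XL, had 6065, 6746 and 6986 normalized counts in EV and 4755, 5151 and 4777 in PRL3 (ENSG00000171552, chromosome 20 from 31664452 to 31723989). The groups did not overlap, with a log2 fold change of -0.43 (SE 0.14, edgeR adjusted p = 0.0240). This call was lost in 5 of the 6 fits that left out a library, all but the one without EV B1, with adjusted p up to 0.109. Over the 6 fits the log2 fold change lay between -0.49 and -0.40. ABALON, a noncoding gene on the opposite strand, covers 41.3% of the exon length of BCL2L1, and its normalized counts of 125 ± 77.2 in EV and 137 ± 35.0 in PRL3 (SD, n = 3 each) were a small part of those of BCL2L1.

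BCL2, the founding member, lies on chromosome 18 from 63123346 to 63320128 (ENSG00000171791) and is the longest of the 10 genes, with a span of 197 kb. It had 745, 754 and 859 normalized counts in EV and 859, 1150 and 1141 in PRL3. EV B3 and PRL3 B9 were level. The log2 fold change of 0.42 (SE 0.18) did not pass (edgeR adjusted p = 0.0763). It passed in 4 of the alternatives, at 0.59 with upper-quartile scaling (edgeR adjusted p = 0.0148), 0.90 with library size alone (0.00125), 0.46 with at least 10 counts in every library (0.0459) and 0.59 with protein-coding genes only (0.00987), and was -0.055 (0.84) with all uniquely aligned reads.

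BCL2L2 (BCL-W, ENSG00000129473, chromosome 14 from 23298790 to 23311751) had 2650, 2524 and 2242 normalized counts in EV and 1649, 2380 and 2034 in PRL3. PRL3 B10 was above EV B3, and the log2 fold change of -0.29 (SE 0.17) did not pass either (edgeR adjusted p = 0.18). With all uniquely aligned reads it passed, at -0.77 (edgeR adjusted p = 0.0043), and with library size alone it was 0.20 (0.30). The readthrough gene BCL2L2-PABPN1 covers 16.8% of its exon length on the same strand. Reads there are ambiguous between the genes and were not counted for BCL2L2, so its level is understated. For each of the 7 called members an exact permutation test (two-sided, on normalized counts) gave p = 0.1, the smallest that 3 libraries against 3 allow, and for BCL2 and BCL2L2 it gave p = 0.2.

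How far each member moved depended on the scaling, while their order in the 4 scalings plotted was the same apart from MCL1 and PMAIP1, which were nearly level and changed places. Scaling by library size alone raised the median log2 fold change of all genes from 0.11 to 0.60, and scaling by all uniquely aligned reads, those outside exons included, lowered it to -0.36. BAX, BAK1 and BID stayed lower (at -0.59, -0.68 and -0.90 with library size alone) and BCL2L11 stayed higher (at 0.66 with all uniquely aligned reads), each past the threshold. With all uniquely aligned reads, MCL1 and PMAIP1 did not pass, at 0.093 and 0.097 (edgeR adjusted p = 0.74 for each). The signs of BCL2, BCL2L1 and BCL2L2 turned between scalings.

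**Figure D2:**
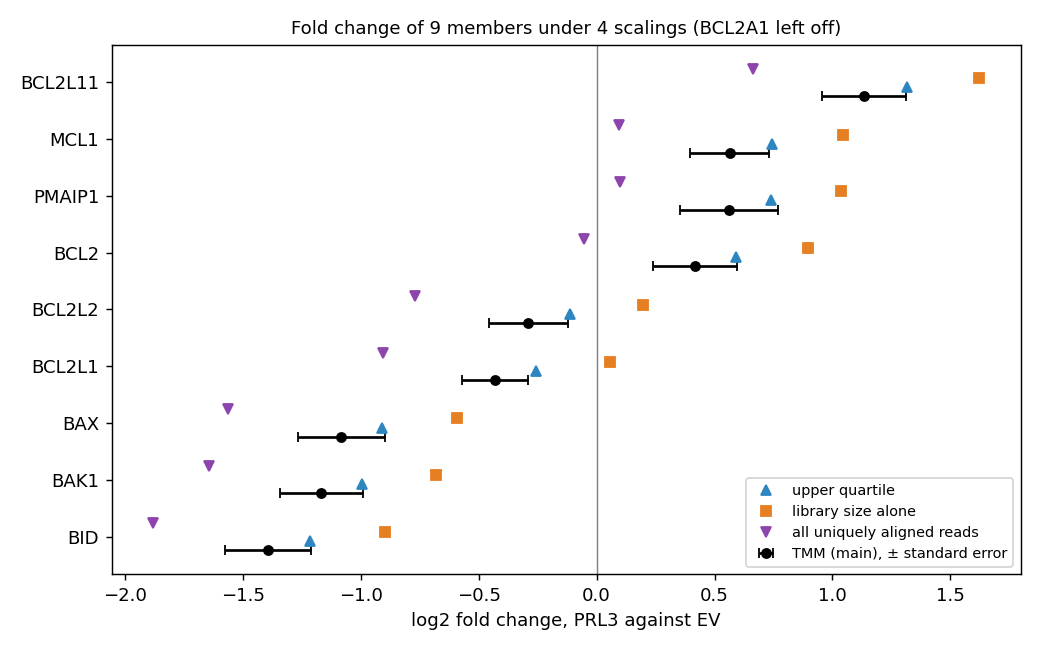
Log2 fold change of PRL3 against EV (x axis) for 9 members (y axis), with TMM (black, bars are the standard error), upper-quartile (blue), library size (orange) and all uniquely aligned reads (purple) scaling. BAX, BAK1 and BID lie left of 0 and BCL2L11 right of 0 under all 4. BCL2A1 is left off because its fitted value depends on the prior count.

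To compare levels between genes, normalized counts were divided by the merged exon length in kb. In EV cells MCL1 had the highest level per kb, at 4915 ± 649 (SD, n = 3), above 97.1% of the tested protein-coding genes. BAX followed with 3119 ± 590, and the lowest MCL1 library (4175) lay above the highest BAX library (3782). BCL2L1 (1572 ± 114), BAK1 (1212 ± 156) and PMAIP1 (859 ± 237) came next, and the levels of PMAIP1 and BAK1 neared each other, with the highest PMAIP1 library at 1046 and the lowest BAK1 library at 1069. BCL2L2 (511 ± 43.1) and BID (403 ± 73.6) followed without overlap of their libraries. BCL2L11 (84.8 ± 14.2) and BCL2 (62.3 ± 5.02) were low, above 32.2% and 27.8% of the tested protein-coding genes, and BCL2A1 (0.305 ± 0.528) was last.

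The order of the top genes depended on the length used. By the length of the canonical transcript alone, which is much shorter for BAX, BAX had 10149 ± 1921 normalized counts per kb in EV (SD, n = 3) and MCL1 7743 ± 1022. In PRL3 cells MCL1 led by either length, with 7269 ± 1010 per kb of merged exons against 1472 ± 299 for BAX and 1268 ± 194 for PMAIP1 (SD, n = 3). The libraries of PMAIP1 then overlapped those of BAX and of BCL2L1 (1166 ± 53.1), and the lowest BAX library (1240) lay just above the highest BCL2L1 library (1227). In EV cells all BAX libraries had stood above those of both.

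The balance of the family was described by the ratio of summed pro-survival to summed pro-death counts per kb within each library, which does not depend on the scaling between libraries. It was 1.33, 1.02 and 1.43 in the EV libraries and 2.52, 2.36 and 2.57 in the PRL3 libraries. Each PRL3 library was above each EV library, and the means were 1.26 ± 0.216 and 2.49 ± 0.108 (SD, n = 3). No test is given, since the members were a chosen list. With canonical transcript lengths the means were 0.853 ± 0.184 and 1.93 ± 0.127, so whether the pro-survival transcripts outweighed the pro-death ones in EV cells depended on the length.

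MCL1 made up most of the pro-survival sum. Its share of the 10 members' counts per kb was 38.6% ± 4.80 in EV and 57.7% ± 0.960 in PRL3 (SD, n = 3). Without MCL1 the ratio was 0.380 ± 0.0327 and 0.473 ± 0.0397. BAX took 24.5% ± 4.86 in EV and 11.6% ± 1.03 in PRL3, and both effectors together took 34.0% ± 5.96 and 15.9% ± 1.17. The BH3-only genes together took 10.6% ± 1.55 and 12.8% ± 0.267, with PMAIP1 at 6.73% ± 1.81 and 10.1% ± 0.330 and BID at 3.17% ± 0.606 and 1.22% ± 0.0613.

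**Figure D3:**
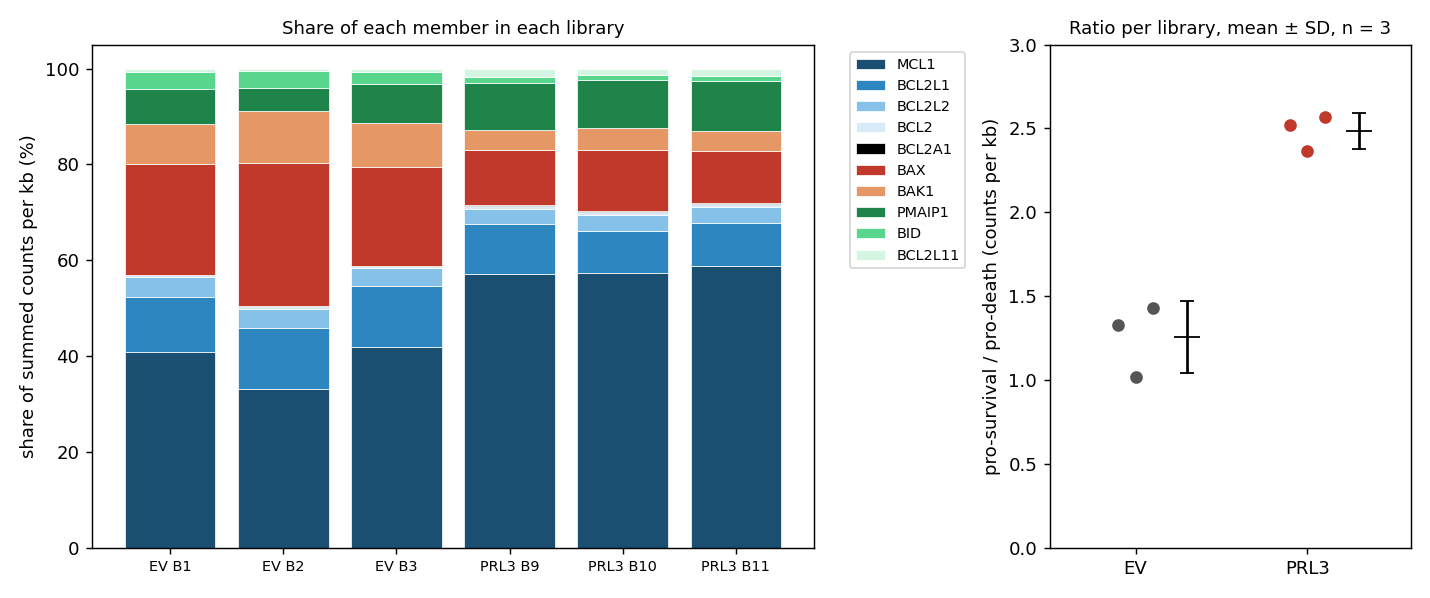
Left, share of each member (colours) in the 10 members' summed counts per kb of merged exons (y axis, %) in each library (x axis); right, ratio of summed pro-survival to summed pro-death counts per kb in each library, with mean and SD. MCL1 takes 33.0% to 41.8% in EV and 57.0% to 58.8% in PRL3 libraries, and the ratio is at most 1.43 in EV and at least 2.36 in PRL3.

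Ratios of known binding partners, chosen after the values had been seen, showed where the members moved together. MCL1 to PMAIP1 was 5.91 ± 1.01 per kb in EV and 5.74 ± 0.104 in PRL3 (SD, n = 3), a difference within the spread of the EV libraries. MCL1 to BAK1 was 4.14 ± 0.972 in EV and 13.5 ± 0.618 in PRL3, with no overlap of the libraries. BCL2L1 to BAX was 0.516 ± 0.103 in EV and 0.808 ± 0.120 in PRL3, with every PRL3 library above every EV library although BCL2L1 itself was lower. Against BCL2L11 the order was the opposite, with MCL1 to BCL2L11 at 60.3, 59.7 and 54.8 in EV and 31.6, 45.8 and 40.5 in PRL3. BCL2 to BCL2L11 was 0.745 ± 0.0953 and 0.450 ± 0.0880.

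Of 13 other BCL2 relatives 11 were tested, with 7 (63.6%) lower, 1 (9.09%) higher and 3 not called, beside 31.6% lower and 15.2% higher of protein-coding genes. The median of the 11 was -0.59 on the log2 scale and that of protein-coding genes -0.15. BAD, a BH3-only protein controlled by survival kinases, had 3137, 5018 and 3107 normalized counts in EV and 942, 1374 and 935 in PRL3, a change of -1.79 on the log2 scale (SE 0.22). BOK, a BAX-like protein, fell by 1.32 on the log2 scale (SE 0.27) and BCL2L12, a divergent relative, by 1.14 (SE 0.17). These 3 were called in every alternative. BBC3 (PUMA, -0.86), HRK (-0.95), BCL2L13 (-0.50) and BNIP3 (-0.59) were also lower, and BCL2L15 was higher at 1.27 from 42.3 ± 17.9 to 103 ± 18.9 normalized counts (SD, n = 3). 4 of these 8 calls, those of BBC3, HRK, BCL2L13 and BCL2L15, were each lost in at least 2 of the 6 fits that left out a library. Reads of BNIP3 could have been shared with its many pseudogenes. BIK (0.31), BMF (-0.099) and BNIP3L (-0.58) did not pass, and BCL2L10 and BCL2L14 were too low to be tested.

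The partners of BAX, BAK1 and BID in the outer membrane were lower, 4 of 4 listed, beside 31.6% of protein-coding genes. MTCH2, a receptor for cleaved BID, had log2 fold change -1.76 (SE 0.16), from 6957 ± 970 to 2060 ± 108 normalized counts (SD, n = 3). VDAC2, the channel that holds BAK1 and brings BAX to the membrane, had -1.34 (SE 0.18), VDAC1 -1.24 and VDAC3 -1.73. Each held in every alternative. All 4 have pseudogenes named after them, so some of their reads could have been lost or misplaced in counting.

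Of 13 apoptosome and caspase genes, which act downstream of the pores, 4 (30.8%) were lower, 2 (15.4%) higher and 7 not called, shares close to the 31.6% and 15.2% of protein-coding genes. ENDOG, AIFM1 and HTRA2, which encode proteins released from the mitochondria beside cytochrome c, had log2 fold changes of -1.96, -0.95 and -1.29 (SEs 0.23, 0.16 and 0.16). DIABLO (SMAC), another released protein, was higher, at 480 ± 111 in EV and 1592 ± 14.4 normalized counts in PRL3 (SD, n = 3), a log2 fold change of 1.73 (SE 0.19). Another gene covers 16.4% of the exons of DIABLO on the same strand, where reads are ambiguous. CASP2 was higher (0.54) and CASP9 lower (-0.70), whereas APAF1 (0.31) did not pass.

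Of the 5 inhibitor of apoptosis genes 2 were lower, 40% beside 31.6% of protein-coding genes. BIRC5 (survivin) fell by 0.95 on the log2 scale (SE 0.16) and BIRC6 by 0.45 (SE 0.15), the latter called in only 2 of the 6 fits that left out a library. XIAP, the main direct caspase inhibitor, had 0.32, BIRC2 0.24 and BIRC3 0.53, none past the threshold. Of 10 death receptor genes, 2 (20%) were lower and 3 (30%) higher, beside 31.6% and 15.2% of protein-coding genes. The TRAIL receptor TNFRSF10A (0.89), the caspase-8 inhibitor CFLAR (0.67) and FAS (0.64) were higher, and the adaptor TRADD (-1.65) and the TNF receptor TNFRSF1A (-0.72) were lower. The call of FAS was lost without EV B2, PRL3 B10 or PRL3 B11. CASP8, whose product cleaves BID, had a log2 fold change of 0.28 (SE 0.18, edgeR adjusted p = 0.24).

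Among 10 regulators of the members, 3 (30%) were lower and 2 (20%) higher, near the same background of 31.6% and 15.2%. E2F1 (-1.34) and ATF4 (-0.63), transcription factors that act on BH3-only genes, were lower. FOXO3, an activator of BCL2L11, was higher (0.55), and so was FBXW7 (0.78), a ubiquitin ligase subunit that marks MCL1 for degradation. The call of FOXO3 was lost without PRL3 B9 or PRL3 B10. Over the 53 tested genes of the 6 pathway lists, 22 (41.5%) were lower and 8 (15.1%) higher, beside 31.6% and 15.2% of all protein-coding genes tested. Of these calls, 14 of the 22 lower and 1 of the 8 higher (DIABLO) held in every alternative.

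**Figure D4:**
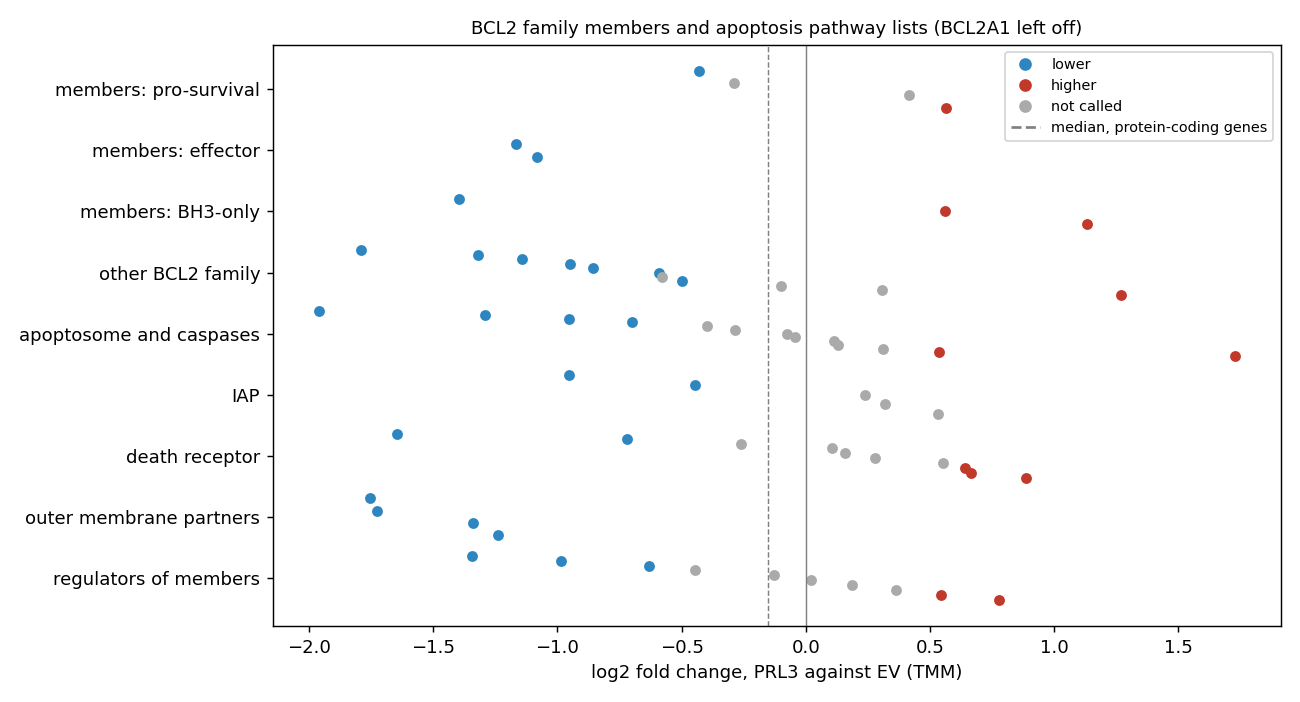
Log2 fold change of PRL3 against EV with TMM scaling (x axis) for 9 members by role and for the tested genes of 6 pathway lists (y axis), 1 point per gene, blue where lower, red where higher and grey where not called. The solid line is 0 and the dashed line the median of protein-coding genes (-0.15); both effectors and all 4 outer membrane partners are lower.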

How the data were processed

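4sU-labelled RNA was sequenced from 3 EV and 3 PRL3 libraries of A375 cells. The authors checked reads with FastQC 0.11.3, aligned them to GRCh38 with STAR 2.5.1b and counted reads per Ensembl gene with htseq-count (HTSeq 0.6.1, reverse strand), and the deposited values are these raw counts without normalization. A read overlapping 2 genes on the counted strand, or aligned to several places, is not in these counts. Symbols, coordinates and exon lengths came from GENCODE release 44 (same build, another release), which matched 57532 of 58243 identifiers, and promoters from RefSeq (GRCh38.p14). Spans, exon lengths and overlaps can therefore differ from those used in counting. The effect of this on levels per kb and on the ratios of members was not tested.

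Counts were fitted in R 4.3.3 with edgeR 4.0.16 (TMM, filterByExpr, quasi-likelihood test, Benjamini-Hochberg over 23884 genes, threshold 0.05). Standard errors come from the F statistic. DESeq2 1.42.0 and limma 3.58.1 (voom) were alternatives, with other scalings, filters, a threshold of 0.01, protein-coding genes only and each library left out. On simulated data 89 of 189 genes changed 2-fold (47.1%) were recovered and 4 of 22585 unchanged genes called. In the data themselves 5426 genes were called lower and 4783 higher, far more than were changed in the simulation. The adjusted p depends on that number, so the 47.1% does not carry over. How many 2-fold changes were missed here is not known. In every pair of libraries of a group the counts differed beyond sampling noise (chi-square of at least 24.7 per gene on average), so all 6 were kept as separate samples. The genes named are the members, their relatives, lists of up to 5 genes, and the called genes of smallest p in the other lists, up to 3 in each direction, to which CASP9, APAF1 and CASP8 were added after their values were seen. Some genes of the lists are counted but not reported here by name. Members, lists and motifs were chosen with earlier results of these data known. Intervals cover counting error only.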

Additional observations from a re-analysis of the deposited data

Results flagged for a closer look

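The share of uniquely aligned reads outside annotated exons of the counted strand was 66.3% ± 3.18 (SD, n = 3) in PRL3 and 33.3% ± 6.75 (SD, n = 3) in EV, the control. These reads entered the comparisons of the members only through the scaling to all uniquely aligned reads, with which MCL1 and PMAIP1 did not pass. All 3 PRL3 libraries were above all 3 EV libraries (two-sided exact permutation test, p = 0.1, the smallest that 3 against 3 allow). The groups of 3 libraries were too small for single libraries to be tested as outliers.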

How the results depend on the processing

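BAX, BAK1, BID and BCL2L11 kept their direction and their call under all 16 alternatives. With at least 10 counts required in every library BCL2A1 was not tested. The log2 fold changes of BCL2L1 (0.058) and BCL2L2 (0.20) reversed with library size alone, and that of BCL2 (-0.055) with all uniquely aligned reads. The number of members higher, 4 with BCL2A1 included, was 5 with upper-quartile scaling, library size alone or protein-coding genes only, 2 with all uniquely aligned reads and 2 at an adjusted p of 0.01, and between 2 and 4 over the fits that left out a library, with 2 without PRL3 B10 or PRL3 B11. The number of members lower, 4, was 5 with all uniquely aligned reads, 3 with upper-quartile scaling, library size alone, no filter, an adjusted p of 0.01 or protein-coding genes only, and 3 or 4 over the fits without 1 library. The pathway genes lower, 22, were 14 with library size alone and 29 with all uniquely aligned reads. Over the fits without 1 library they were between 18 and 25. The pathway genes higher, 8, were 22 with library size alone, 1 with all uniquely aligned reads, 5 at 0.01 and 13 with protein-coding genes only, and between 5 and 10 over the fits without 1 library, with 5 without PRL3 B10. The ratio of pro-survival to pro-death members was 2.73 in EV and 5.49 in PRL3 without division by length, 0.380 and 0.473 without MCL1, 1.67 and 4.50 with the effectors as the only pro-death members, and 0.853 and 1.93 with canonical transcript lengths, the last chosen after seeing the data. The cause of these changes was not tested, apart from the stricter threshold and the members left out. No paired analysis was possible because no replicate number occurs in both groups. Of all tested genes, 5426 were lower and 4783 higher with TMM, against 3078 and 9514 with library size alone, 8473 and 1952 with all uniquely aligned reads, 4475 and 6353 with the upper quartile, and 2719 higher at 0.01. BCL2A1 is limited by depth, with at most 1 read per EV library.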
